A study of Canis lupus familiaris with 28 samples.

Results

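Histiocytic sarcoma (HS) samples of Bernese Mountain Dogs (BMDs) were compared by the site from which they were taken. The thoracic group held 3 tumors, HS4 with the tissue label Thoracic Mass and HS14 and HS37 with the label Thorax, and the lung group held 5 tumors labelled Lung, HS27, HS35, HS47, HS48 and HS52. These 8 libraries were grouped by their labels, out of 24 libraries in the tumor count table and 28 in the series. The comparison was chosen with earlier results of these data known. All 8 libraries carry the disease label of HS without the hemophagocytic form (HHS). No treatment is given for any of them. The labels do not say which chest structure a thoracic sample came from, whether it included lung tissue, or the sex or age of a dog, and each library was taken as 1 tumor. A further 7 HS tumors from liver, spleen, leg mass and shoulder served as a reference, and 1 normal lung library, from a German Shepherd Dog (GSD), served to flag genes of surrounding lung. Total RNA was sequenced after depletion of ribosomal and globin RNA.

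HS is a cancer of histiocytes, a name that covers macrophages and dendritic cells. Such cells take up and digest material in lysosomes and show peptides on major histocompatibility complex (MHC) proteins, which are called dog leukocyte antigens (DLA) in the dog. A sample of tumor tissue also holds stroma, vessels and whatever organ surrounds it, and in lung that includes the thin alveolar cells of gas exchange and the ciliated cells of the airways. In bulk tissue, fewer cells of a type and less RNA per cell cannot be told apart.

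Counted reads ranged from 124147248 to 171815073 per library, so that 3 reads correspond to 0.0175 to 0.0242 CPM (counts scaled to the total of the library), a limit that covers counting error only. No pair of the 8 libraries was close enough to be the same library deposited again. The macrophage and dendritic cell markers summed to between 2070 and 13600 CPM in the 8 tumors and to 1030 CPM in normal lung, and the alveolar and airway epithelial markers summed to between 7.24 and 61.6 CPM in the tumors and 1790 CPM in normal lung. Over the 500 most variable genes, the Euclidean distance between 2 thoracic tumors was 111 to 122 on the log2 CPM scale, between 2 lung tumors 80.1 to 118, and between a thoracic and a lung tumor 98 to 123. The thoracic tumors HS4 and HS37 lay closest to a lung tumor (HS47 and HS48), and HS14 lay closest to HS4. The median distance was 121 among the thoracic tumors and 112 between the sites. Each p-value below weighs a difference against the spread between the tumors of the comparison it belongs to.

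The first question was which genes differ between the sites. Of 17888 genes tested, 1 passed the edgeR quasi-likelihood test at an adjusted p-value under 0.05 with an absolute log2 fold change (log2FC) above 1.5, which is 0.00559% of the genes. It was lower in the thoracic tumors, and 0 genes were higher. At an unadjusted p under 0.05 there were 1019 genes (5.7%), 538 of them higher (3.01%) and 481 lower (2.69%) in thoracic tumors. The levels of the groups did not overlap for 559 genes (3.12%), with all thoracic tumors above all lung tumors for 264 (1.48%) and below for 295 (1.65%). With the same cutoffs DESeq2, the tool of the study, called 106 (0.593%), of which 68 were lower and 38 higher in thoracic tumors. Of those 106, 61 had groups that did not overlap. A name was held by 11 of the 106, beside 973 of the 17888 genes tested. Genes of normal lung, as defined below, were 16 of the 106, beside 581 of the 17888, and 15 of the 16 were lower. Since the tools differ this much, every gene below that did not pass the edgeR test is given by its values and not as changed.

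The gene that passed was ENSCAFG00000030958, for which no name was found in the tables used here. Its level was 0.58 log2 CPM in HS4, 0.56 in HS14 and 0.69 in HS37. In the lung tumors it was 10.03 in HS27, 8.91 in HS35, 8.77 in HS47, 6.51 in HS48 and 9.23 in HS52. The groups lay far apart, 0.61 ± 0.07 (SD, n = 3) against 8.69 ± 1.31 (SD, n = 5), with a log2FC of -8.45 (SE 0.92, 95% confidence interval -10.50 to -6.41, edgeR adjusted p = 0.0485). The test did not hold with any thoracic tumor left out (adjusted p of 0.214 to 0.381 by edgeR), or without HS35, HS47 or HS52 (0.121 to 0.162), although the log2FC stayed between -8.72 and -8.08.

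The same gene was either high or low in every other kind of sample too. On the scale of all 24 libraries it was 8.55 and 9.03 log2 CPM in 2 normal blood samples and 0.02 in the other. It was 0.72 in normal liver, 0.47 in normal lung and 1.40 in normal spleen. In the reference HS tumors it was 7.22 in HS29, 5.34 in HS36, 9.23 in HS39 and 9.65 in HS51, but 0.73 in HS33, 0.43 in HS34 and 0.11 in HS50. Its level therefore differed between samples of 1 tissue as widely as between the 2 sites. In the fit of all 15 HS tumors, where that spread entered the test, the same log2FC of -8.45 had an edgeR adjusted p of 0.835. What separates the high from the low libraries was not tested.

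**Figure D1:**
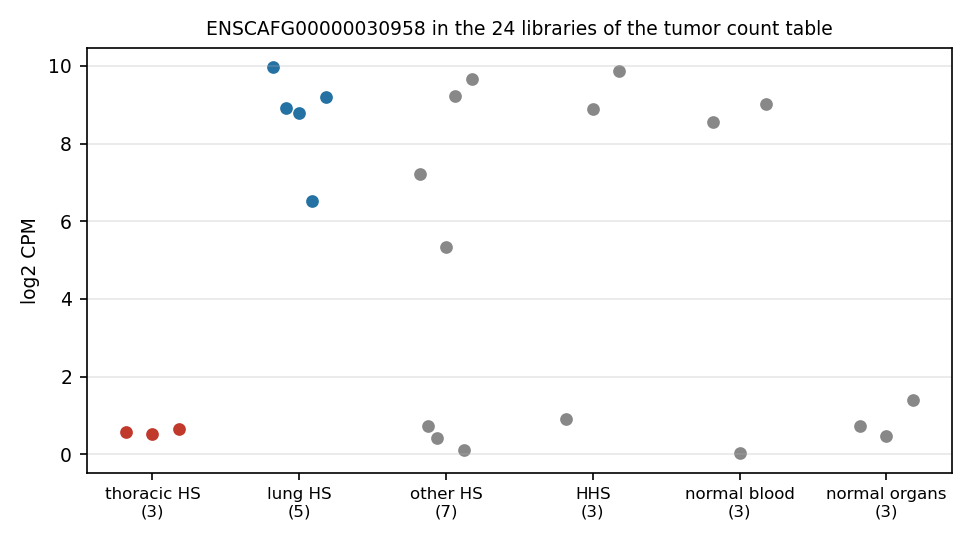
Level (log2 CPM, y axis) of ENSCAFG00000030958 in each library, 1 point per library, by kind of sample (x axis, number of libraries in brackets). The 3 thoracic tumors lie between 0.51 and 0.65 and the 5 lung tumors between 6.53 and 9.97 on this scale, while the other HS tumors, HHS tumors and blood samples hold both high and low libraries.

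A second gene without a name, ENSCAFG00000017227, was also lower in thoracic tumors, with raw counts of 0, 12 and 24 in HS4, HS14 and HS37 against 1439 to 6876 in the lung tumors (log2FC -7.94, SE 1.28, edgeR adjusted p = 0.44). In the other direction, ENSCAFG00000012148 had 160, 923 and 12 counts in HS4, HS14 and HS37 and 0 in every lung tumor except HS48, which had 1. ENSCAFG00000009122 had 5.17, 6.65 and 5.83 log2 CPM in HS4, HS14 and HS37. In the lung tumors it had 2.78 in HS27, 0.77 in HS35 and between -0.32 and 0.09 in the remaining 3 (log2FC 4.84, SE 0.79, edgeR adjusted p = 0.44). On the scale of all 24 libraries this gene was at 12.38 log2 CPM in normal liver, and the reference tumors reached 5.15 in HS33, itself from liver. It passed the edgeR test when HS27 was left out (log2FC 5.85, adjusted p = 0.0364). For all 3 genes the groups did not overlap.

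Among genes with a name, none passed the edgeR test. DESeq2 called 11 of them, with adjusted p-values from 6.7e-04 (SAMD12) to 0.0499 (DCSTAMP). SAMD12 and HLA-C were higher in thoracic tumors. The 9 lower ones were MAP7, TMX3, FBP1, ARFGEF3, CEP85L, POLI, UNC93A, CNDP1 and DCSTAMP. The 10 named genes of smallest p in each direction were followed in each tumor, and all 20 had an edgeR adjusted p of 0.859. Because they were chosen by p, that the groups of some do not overlap is part of the choice.

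Of the genes higher in thoracic tumors, only 3 of 10 had every thoracic tumor above every lung tumor. SAMD12, which encodes a protein with a sterile alpha motif, had 102, 574 and 397 counts in HS4, HS14 and HS37 and 7 to 53 in the lung tumors, with a log2FC of 4.31 (SE 0.95). MAPK13, the delta form of the p38 stress kinases, had 4.89, 5.76 and 5.12 log2 CPM in the thoracic tumors. In lung it had 2.30 to 3.08 in 4 tumors and 4.43 in HS52, and its log2FC was 2.06 (SE 0.53). TSPAN31, a membrane protein of the tetraspanin family, had 5.38, 6.17 and 6.30 log2 CPM against 4.47 to 5.07, a narrow but steady log2FC of 1.12 (SE 0.33). MFNG, a glycosyltransferase that modifies Notch receptors, had 5.42 in HS4 and 4.63 in HS37, above the lung range of 0.59 to 2.92, but 2.02 in HS14, within it (log2FC 2.51, SE 0.73).

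In 3 further genes of that direction, LY6E, TNFRSF11B and MEST, a single thoracic tumor lay above the lung range by far, and it was a different one for each gene. LY6E, an interferon-inducible surface protein, had 10.29 log2 CPM in HS14 but 3.64 in HS4 and 1.46 in HS37, against 0.61 to 3.28 in lung, and its log2FC of 6.32 (SE 1.54) was 0.55 without HS14. TNFRSF11B encodes osteoprotegerin, the soluble decoy receptor that binds RANKL. It had 6.91 in HS4, -2.40 in HS14 and 1.43 in HS37, against -1.49 to 1.95 in lung, and its log2FC of 4.92 (SE 1.54) was 0.09 without HS4. MEST, an imprinted gene, had 7.13 in HS37 but 0.05 in HS4 and -4.54 in HS14, against -2.45 to 0.87 in lung. Its log2FC of 5.94 (SE 1.78) turned to -0.54 without HS37.

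FABP7, a fatty acid binding protein, had -1.06, 3.12 and 6.06 log2 CPM in HS4, HS14 and HS37 against 0.70 to 2.27 in lung, so that HS14 and HS37 lay above the lung tumors and HS4 below them (log2FC 3.16, SE 1.05, and 0.69 without HS37). TRHR, the receptor of thyrotropin-releasing hormone, was counted 635 times in HS14, 14 times in HS4 and 0 times in HS37, and at most 12 times in any lung tumor (log2FC 6.40, SE 2.11, and 0.90 without HS14). The gene named by its human homolog HLA-C, an MHC class I heavy chain, had 3.27, 0.52 and 5.98 log2 CPM against -0.14 to 1.85 in lung, with HS4 and HS37 above the lung range (log2FC 3.69, SE 0.99, and 1.52 without HS37). MHC class I genes have near-identical copies, so its counts are uncertain.

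**Figure D2:**
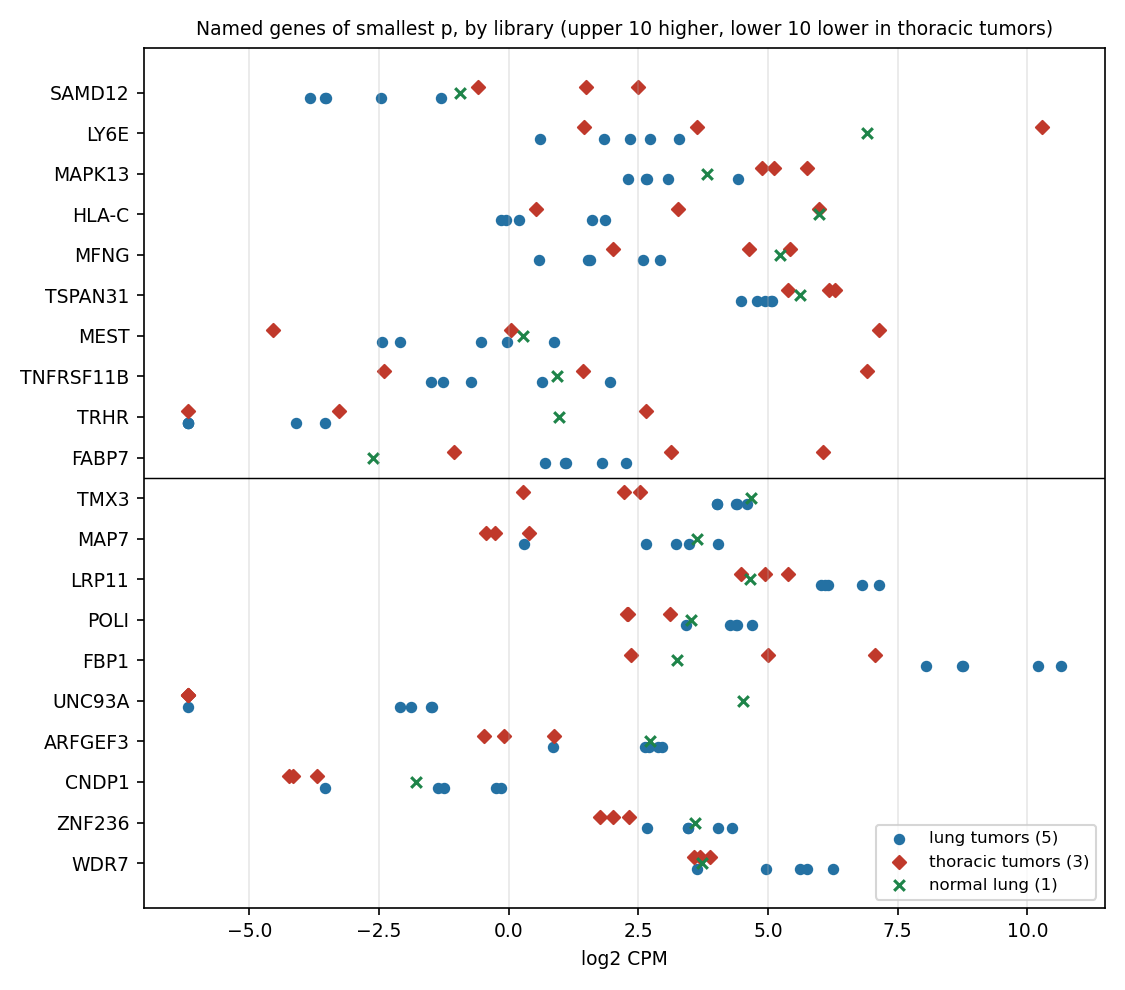
Level (log2 CPM, x axis) of the 20 named genes of smallest p (y axis), with 1 diamond per thoracic tumor, 1 circle per lung tumor and a cross for the normal lung library. The cross is on the scale of all 24 libraries, with a prior count of 0.5 in place of 2. The upper 10 genes have the higher mean level in thoracic tumors and the lower 10 the lower one. In LY6E, MEST, TNFRSF11B and TRHR 1 thoracic tumor stands far to the right, whereas in TMX3, LRP11, POLI, FBP1, CNDP1 and ZNF236 all 3 thoracic tumors lie left of all lung tumors.

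The genes lower in thoracic tumors were steadier, and 6 of 10 had every thoracic tumor below every lung tumor. TMX3, a membrane-bound disulfide isomerase of the endoplasmic reticulum, had 2.54, 2.23 and 0.28 log2 CPM in HS4, HS14 and HS37 and 4.01 to 4.60 in lung (log2FC -2.34, SE 0.57). FBP1, the gluconeogenic enzyme fructose-1,6-bisphosphatase, had 2.35, 4.99 and 7.06 log2 CPM against 8.04 to 10.65 (log2FC -3.79, SE 1.08). It was at 3.24 in normal lung on the scale of all 24 libraries, below every lung tumor. LRP11, a protein related to the low-density lipoprotein receptor, had 4.94, 4.48 and 5.38 against 6.03 to 7.13 (log2FC -1.54, SE 0.41).

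POLI, a DNA polymerase that copies past damaged bases, had 3.11, 2.30 and 2.29 log2 CPM in the thoracic tumors against 3.42 to 4.69 in lung (log2FC -1.67, SE 0.46). ZNF236, a zinc finger protein, had 2.32, 2.01 and 1.76 against 2.67 to 4.31 (log2FC -1.64, SE 0.51). CNDP1, the dipeptidase that splits carnosine, was low everywhere, with 10, 4 and 6 counts in HS4, HS14 and HS37 and 12 to 172 in lung (log2FC -3.39, SE 1.05). In all of these the lung tumor nearest to the thoracic range differed from gene to gene, being HS52 for POLI, HS27 for ZNF236 and HS47 for CNDP1.

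In the other 4 genes 1 lung tumor reached the thoracic range. MAP7, a microtubule-associated protein of epithelia, had 0.39, -0.27 and -0.44 log2 CPM in the thoracic tumors and 2.64 to 4.03 in lung, except for 0.29 in HS48 (log2FC -3.23, SE 0.83). ARFGEF3 had 0.85 in HS27, inside the thoracic values of -0.10, 0.87 and -0.48, and 2.62 to 2.95 in the other lung tumors (log2FC -2.37, SE 0.69). WDR7, a partner of the proton pump of acidic vesicles, had 3.68, 3.88 and 3.58 against 3.64 in HS27 and 4.96 to 6.25 in the other lung tumors (log2FC -1.76, SE 0.55). UNC93A was counted 0 times in the 3 thoracic tumors and in HS48 and 25 to 66 times in the other lung tumors, a mean at least 10.3-fold lower in the thoracic group when its libraries are set at 3 counts each.

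These 10 genes share a feature that the choice by p did not use: in the RefSeq assembly of a GSD genome all 10 lie on chromosome 1. Names were available for 1126 of the 32704 identifiers, 973 of which were tested. Of these, 816 could be placed in the RefSeq gene order, nearly all on chromosomes 1 and 10 to 14, so other chromosomes could not be examined. Chromosome 1 holds 205 of the 816 placed genes (25.1%). It holds 33 of the 44 placed genes that were lower in thoracic tumors at an unadjusted p under 0.05 (75%), and 23 of the 28 whose thoracic levels all lay below the lung levels (82.1%). In the other direction it holds 3 of 32 and 0 of 13. No test was made of this pattern, which was noticed in these data.

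Along chromosome 1 the shift was broad. Of its 205 genes, 165 had a negative log2FC and 40 a positive one, with a median of -0.53, against a median of 0.00 over all 17888 genes tested, 50.1% of which were positive. Genes lower at an unadjusted p under 0.05 made up 16.1% of chromosome 1, against 2.69% of all genes. In consecutive blocks of 20 genes the median was lowest from VTA1 to KATNA1, where all 20 genes were negative (-0.99), and from C1H18orf54 to MYB (-0.96). It was nearest to 0 from QKI to MCM9 (-0.18), with 8 of 20 genes positive. The blocks were bounded by gene order alone, and these were picked out after their values were seen.

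The same shift can be read in each tumor, as the median over chromosome 1 genes of the deviation from the mean of the 8 tumors. It was -0.27 in HS4, -0.40 in HS14 and -0.45 in HS37. In lung it was 0.44 in HS35, 0.37 in HS47, 0.50 in HS48, 0.05 in HS52 and -0.23 in HS27. All thoracic tumors were thus below all lung tumors, but HS27 lay only just above HS4. Centred on all 15 HS tumors instead, the thoracic tumors had -0.36, -0.54 and -0.55, the lung tumors -0.31 to 0.38 and the 7 reference tumors -0.18 to 0.41, so the thoracic tumors were the 3 lowest of 15. The median log2FC of chromosome 1 genes was -0.64 for thoracic tumors against the reference tumors and -0.02 for lung tumors against the same tumors. Leaving out any single tumor kept the median log2FC between the 2 sites within -0.66 to -0.45.

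The other chromosomes with enough placed genes showed smaller medians. Chromosome 12, which holds the DLA genes, had a median log2FC of 0.27 with 94 of 129 genes positive, and the tumors differed more within lung than between sites (0.48 in HS27 and -0.79 in HS47). Chromosome 10 had 0.15 with 137 of 226 positive, chromosome 11 had -0.16 with 45 of 121, chromosome 13 had -0.10 with 47 of 108, and chromosome 14 had -0.24 with 9 of 25. Chromosome 12 held 8 of the 13 placed genes with all thoracic tumors above all lung tumors, MAPK13 among them. That is 6.2% of its genes, beside 1.48% of all genes. On chromosomes 10, 11, 13 and 14 the medians of the thoracic tumors, centred on the 8 tumors, lay on both sides of 0. With single tumors left out the median log2FC ran from 0.15 (without HS47) to 0.50 (without HS27) on chromosome 12 and from 0.03 (without HS4) to 0.19 (without HS52) on chromosome 10. It ran from -0.49 (without HS37) to 0.00 (without HS14) on chromosome 11, from -0.34 (without HS14) to 0.02 (without HS52) on chromosome 13, and from -0.39 (without HS37) to -0.01 (without HS14) on chromosome 14.

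**Figure D3:**
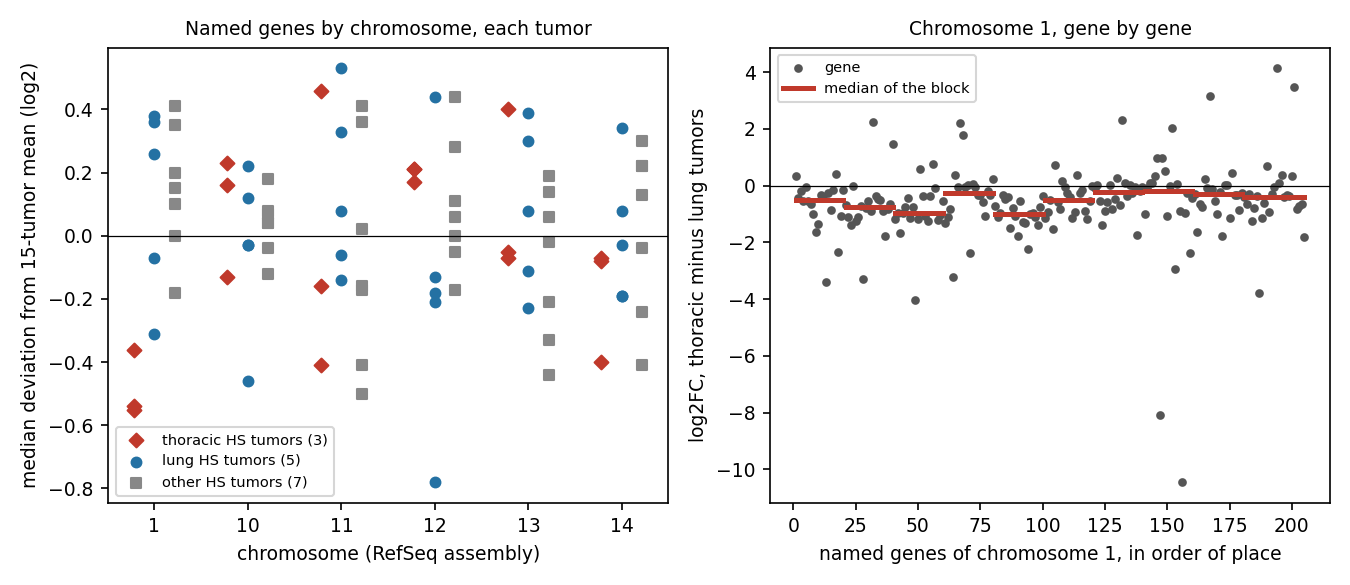
Left, the median over the named genes of each chromosome (x axis) of the deviation from the mean of 15 HS tumors (log2, y axis), 1 point per tumor. Right, the log2FC of each of the 205 named genes of chromosome 1 in their order along it, with bars at the median of consecutive blocks of 20 genes (25 in the last). On chromosome 1 the 3 thoracic tumors are the lowest of the 15, and every block median is below 0.

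To describe the biology beyond single genes, 16 lists of cell type markers and pathways were used. The lists could hold only genes with a name, which 1126 of the 32704 identifiers had. Those that could be placed lie nearly all on the few chromosomes given above. Each value of a list therefore describes its listed genes and not a whole cell type or pathway. No member of any list passed the edgeR test, while DESeq2 called DCSTAMP. Antigen presentation had the highest median log2FC, 0.93, with 11 of 13 genes positive, beside 50.1% of all genes. Of the 13, 2 were higher at an unadjusted p under 0.05, beside 3.01% of all genes. TAP2, which pumps peptides to MHC class I, had 7.17, 7.14 and 7.13 log2 CPM in HS4, HS14 and HS37 and 5.51 to 6.83 in lung, with no overlap (log2FC 0.93, SE 0.35, edgeR adjusted p = 0.859). The class I heavy chain DLA88 had 10.49 and 10.80 in HS4 and HS37, above the lung range of 7.44 to 9.42, but 7.92 in HS14 (log2FC 1.57, SE 0.63).

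For MHC class II the order was different. DLA-DRA, its alpha chain, had 13.93 log2 CPM in HS14, above every lung tumor, but 11.67 in HS4 and 10.70 in HS37 against 9.94 to 12.46 in lung. Its log2FC of 1.04 (SE 0.76) was -0.43 without HS14. The median of the whole list was 0.09 without HS14, so that median rested on this tumor. The class I genes named above did not: DLA88 had a log2FC of 2.03 without HS14. TAP2 stayed within 0.80 to 1.14 with any single tumor left out. Other members of the list overlapped between the sites. DLA-64, another class I gene, had 1730, 2140 and 1290 CPM in HS4, HS14 and HS37, within the lung range of 293 to 5240. PSMB8 had 193, 231 and 288 CPM, within 76.8 to 802 in lung. Against the reference tumors the list had a median of -0.08 in thoracic and -1.02 in lung tumors.

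The markers of macrophages and dendritic cells summed to 13600 CPM in HS14, 2640 in HS4 and 3080 in HS37, against 2070 to 4820 in lung. LYZ and CD63 gave 12800 CPM of the sum in HS14, and the other 13 markers summed to 789 there, 703 in HS4 and 1830 in HS37 against 938 to 1580 in lung, so HS14 did not stand apart in the sum of the others. LYZ, the lysozyme of phagocytes, had 13.22 log2 CPM in HS14, 9.37 in HS4 and 9.02 in HS37, and 7.88 to 11.42 in lung (log2FC 1.46, SE 1.00, and -1.14 without HS14). CD63, a tetraspanin of lysosomes, had 11.82 in HS14, 10.32 in HS4 and 9.54 in HS37 against 9.10 to 10.66 (log2FC 1.12, SE 0.58, and 0.24 without HS14). Over the 15 markers, however, the median log2FC was -0.23 and 5 were positive, with a median of -1.19 without HS37 and 0.09 without HS4. DCSTAMP, a membrane protein needed for the fusion of such cells, had -1.56, -0.69 and -2.19 log2 CPM in the thoracic tumors and ranged from -2.13 in HS27 to 3.95 in HS52 (log2FC -3.79, SE 1.33, edgeR adjusted p = 0.859). CSF2RB, the shared receptor chain for growth factors of myeloid cells, had 6.51, 5.71 and 7.08 against 6.51 to 8.72 (log2FC -1.06, SE 0.55, and -0.57 without HS52). The 10 lysosome genes tested had a median of -0.05, which was -0.47 without HS14.

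The genes around MDM2 and CDK4 on chromosome 10 correspond to a region that is often amplified in human sarcomas. Of 19 genes, 15 were positive, with a median log2FC of 0.41, 3 were higher at an unadjusted p under 0.05 (15.8%, beside 3.01% of all genes), and 4 had all thoracic tumors above all lung tumors (21.1%, beside 1.48%). CDK4, the kinase that drives cells out of G1, had 7.38, 9.01 and 8.43 log2 CPM in HS4, HS14 and HS37 against 7.17 to 7.79 in lung (log2FC 0.91, SE 0.40, and 0.47 without HS14). OS9, a lectin of protein quality control, had 8.74, 9.55 and 9.12 against 7.95 to 8.79 (log2FC 0.93, SE 0.37). TSFM, a mitochondrial elongation factor, had 6.47, 7.05 and 6.69 against 5.73 to 6.29, with no overlap (log2FC 0.68, SE 0.31). CPSF6, a factor of mRNA cleavage, had 5.31, 5.81 and 5.48 against 5.00 to 5.28 (log2FC 0.41, SE 0.30), and B4GALNT1, which builds gangliosides, had -0.57, 0.06 and 0.04 against -5.10 to -0.89 (log2FC 1.62, SE 0.98).

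TSPAN31 lies beside CDK4 in the gene order, and since the strand setting of the counting is not given in the sources used here, reads of the neighbours may be shared. MDM2 itself, the ligase that marks p53 for breakdown, overlapped fully, with 7.54, 5.71 and 6.95 log2 CPM against 6.03 to 7.41 (log2FC 0.21, SE 0.47, and -0.24 without HS4). Without HS14 the median of the list stayed positive, and over all single tumors left out it ran from 0.21 to 0.47. The median of the list was 0.51 for thoracic tumors against the reference tumors and -0.08 for lung tumors against them. The shift did not follow the list. Chromosome 10 blocks had medians of 0.38 (ITGA7 to CS), 0.58 (CNPY2 to SHMT2) and 0.44 (NDUFA4L2 to CTDSP2). Later blocks had -0.16 (ATP23 to MDM1), -0.08 (NUP107 to CHKB-CPT1B) and then -0.09 to 0.38. From CNPY2 to SHMT2 the median deviation from the mean of the 8 tumors was 1.03 in HS14, -0.13 in HS4 and 0.30 in HS37. In lung it was -0.52 to 0.01.

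The cell cycle genes of the list differed little. The paper reports FOXM1, AURKB and PLK1 as upregulated in HS, but the list holds none of them, so they were not examined here. Of 28 genes, 18 were positive with a median log2FC of 0.16, which was 0.02 without HS27. In 3 of the 28 all thoracic tumors lay above all lung tumors, beside 1.48% of all genes. These were KIFC1, TCF19 and TUBB, shown here for that reason. KIFC1, a kinesin that focuses spindle poles, had 7.35, 6.83 and 7.15 log2 CPM against 5.24 to 6.70, with no overlap (log2FC 1.08, SE 0.37, edgeR adjusted p = 0.859). TCF19 had 4.22, 4.83 and 4.25 against 2.41 to 4.20 (log2FC 0.66, SE 0.45) and TUBB, a beta tubulin, 9.70, 9.87 and 9.71 against 8.65 to 9.54 (log2FC 0.52, SE 0.37). Among the 9 genes of the growth factor and MAPK response the median was 0.12, which was -0.02 without HS37 and 0.33 without HS27. TRIB1, a pseudokinase that binds MEK, had 8.24, 6.65 and 6.79 against 5.86 to 7.22 (log2FC 0.94, SE 0.47, and 0.25 without HS4), and NAB2, a corepressor of EGR proteins, had 8.11 in HS14, and both other thoracic tumors lay within the lung range of 5.62 to 6.18 (log2FC 1.06, SE 0.51, and -0.08 without HS14).

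Hedgehog and WNT genes leaned the other way, with 3 of 10 positive and a median log2FC of -0.82, which was -0.43 without HS35 and -0.47 without HS52. LGR5, a receptor of R-spondins, was counted 1, 1 and 0 times in HS4, HS14 and HS37. In lung it was counted 0 times in HS27, 4 in HS48, 41 in HS35, 44 in HS52 and 281 in HS47. WIF1, a secreted inhibitor of WNT proteins, had -1.27, -1.66 and -3.45 log2 CPM in the thoracic tumors and 0.89 to 3.18 in lung, except for -4.54 in HS48 (log2FC -4.02, SE 1.44, edgeR adjusted p = 0.859). It was at 2.07 in normal lung on the scale of all 24 libraries.

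Stromal lists showed no shared direction. The 25 fibroblast and matrix genes had a median log2FC of 0.00, with 12 positive. CTHRC1, made by activated fibroblasts, had 5.10 log2 CPM in HS4 but 2.88 in HS14 and 2.19 in HS37 against 1.59 to 2.76 in lung (log2FC 1.69, SE 0.65, and 0.32 without HS4). TGFBI, a matrix protein induced by TGF-beta, had 6.83, 1.74 and 4.35 against 4.40 to 8.50 (log2FC -1.82, SE 1.10, and -3.76 without HS4). The median of the fibroblast list was -0.70 without HS4. The endothelial list, with 4 lung genes among 5, had a median of 0.38 that was -0.63 without HS4. FLT4, the receptor of lymphatic growth factors, had 4.96, 4.85 and 2.05 against 2.46 to 3.81 (log2FC 1.02, SE 0.61, 0.65 without HS4 and 0.23 with the HHS lung tumor added).

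The 6 muscle markers tested had a median of -0.21, and ITGA7, a laminin receptor of muscle that these tumors also express, had 9.07, 8.27 and 3.87 against 5.63 to 7.66 (log2FC 1.35, SE 0.83, and 0.52 without HS4). T and NK cell markers had a median of -0.06 over 8 genes, with IL2RB, a receptor chain for interleukin 2, at 3.40 in HS4 and 2.68 in HS14, with all thoracic tumors within the lung range of 2.23 to 5.28 (log2FC -1.15, SE 0.67). The erythroid and platelet list had 0.23 over 3 genes, the cytokine and interferon list -0.08 over 13 and the Schwann cell and melanocyte list -1.01 over 3. Without HS48 the muscle, T and NK cell and cytokine medians turned to 0.32, 0.48 and 0.36, and without HS14 the erythroid median turned to -0.90. In the Schwann cell and melanocyte list, the melanocyte gene TYRP1 and the Schwann cell genes SOX10 and CDH19 had 0 counts in all thoracic tumors and were at or near 0 in lung too, with at most 12, 21 and 5 counts. MBP had 2.87, 2.53 and 1.64 log2 CPM against 3.04 to 4.18 (log2FC -1.01, SE 0.51).

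**Figure D4:**
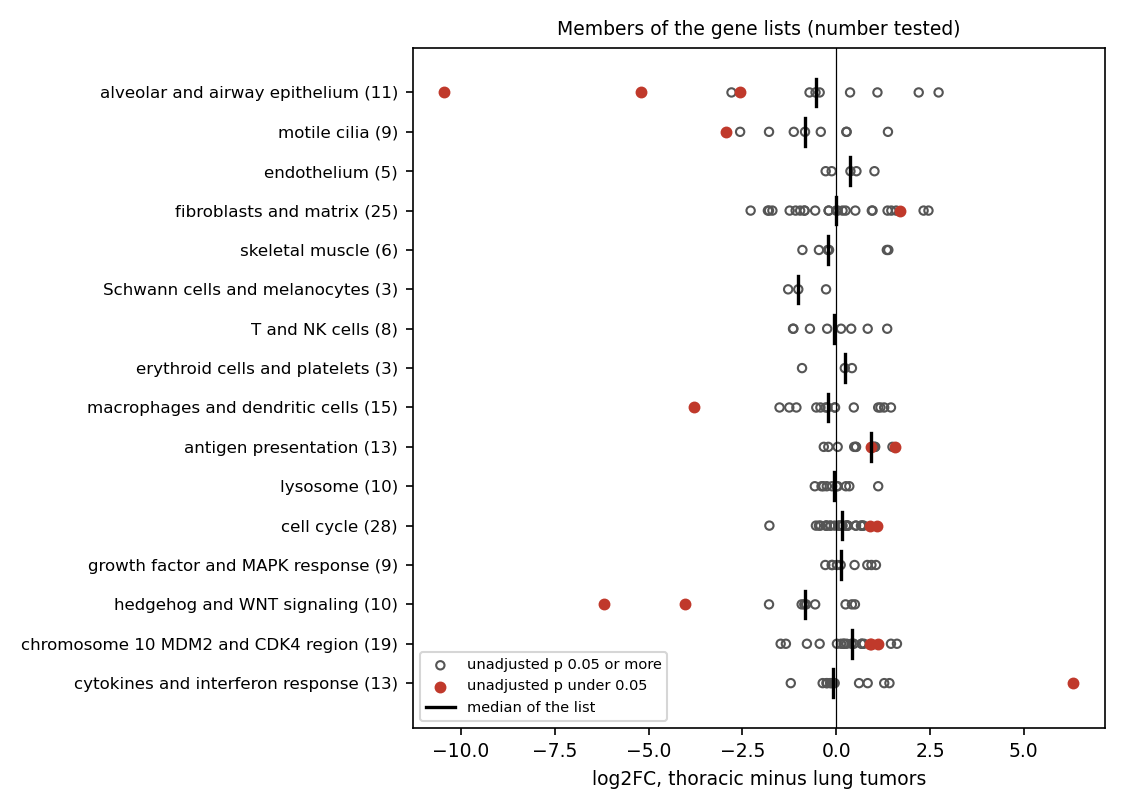
Log2FC of thoracic against lung tumors (x axis) for each tested member of the 16 gene lists (y axis, number of members tested in brackets), with a bar at the median of the list. Filled points have an unadjusted p under 0.05. Antigen presentation has the highest median, 0.93, and the far left points are ROS1, LGR5, SLC44A4 and WIF1.

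A tumor labelled Lung may hold lung tissue, so genes of normal lung were examined apart. Of 638 lung genes, defined as at least 5 CPM in normal lung and at least 4 times the level in normal liver, spleen and blood, 581 were tested. Of these, 28 were higher (4.82%) and 41 lower (7.06%) in thoracic tumors at an unadjusted p under 0.05, beside 3.01% and 2.69% of all genes. Of the 581, 53.4% were positive and the median log2FC was 0.07, against 0.00 over all genes. It was -0.63 without HS4. The summed level of the lung genes was 25100 CPM in HS4, 26100 in HS14 and 8720 in HS37. In the lung tumors it was 11800 in HS27, 15000 in HS35, 35800 in HS47, 20400 in HS48 and 12200 in HS52, and in normal lung it was 68200. The groups overlapped in part, with HS37 below every lung tumor and HS47 above every thoracic tumor. A reference tumor from liver, HS36, reached 28700.

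That sum was carried by few genes. A single gene gave 63.3% of it in HS47 and 53.7% in HS36, whereas in normal lung the first gene gave 12.6% of it. Over the 588 lung genes that stayed at or below 100 CPM in every HS tumor, the sums were 4470, 2710 and 1490 CPM in HS4, HS14 and HS37 and 1690 to 3350 CPM in the lung tumors, against 39500 CPM in normal lung.

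The 2 genes highest in normal lung were also read by their counts. The gene highest there, which has no name, was counted 0, 10 and 12 times in HS4, HS14 and HS37 and 0 times in HS27, but 4422 times in HS35, 41679 in HS47, 154 in HS48 and 6749 in HS52. The next, also without a name, was counted at most 8 times in these thoracic tumors and 3 times in HS27, but 557, 1492, 81 and 57649 times in HS35, HS47, HS48 and HS52. HS27 was thus as low as the thoracic tumors in these genes, the other 4 lung tumors lay above them, and neither gene passed the edgeR test. DESeq2 called the gene highest in normal lung (log2FC -10.00, DESeq2 adjusted p = 0.0103).

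The sum of the epithelial markers differed among the lung tumors, in HS35 and HS47 mostly through 1 gene, AGER. Their sum was 59.8 CPM in HS35, 61.6 in HS47 and 46.3 in HS52, but 7.24 in HS27 and 8.52 in HS48, and it was 19.0, 16.8 and 15.8 in HS4, HS14 and HS37. These sums are 0.405% to 3.45% of that in normal lung. AGER alone gave 47.3 CPM in HS35 and 48.7 in HS47. The other 11 markers summed to 12.5 in HS35, 12.9 in HS47, 32.9 in HS52, 3.72 in HS27 and 2.38 in HS48, against 11.4 to 15.1 in the thoracic tumors, so that without AGER only HS52 lay above the thoracic range. ERBB3, not a lung gene and at 154 CPM in normal liver, gave 10, 7.97 and 3.34 CPM of it in HS4, HS14 and HS37. MAL2, not a lung gene either, gave 6.62 CPM in HS37, and the lung gene FER1L6 gave 5.74 in HS14. The sum without AGER is thus not a measure of lung epithelium alone. AGER, a lung gene and a marker of alveolar type 1 cells, had 5.56 log2 CPM in HS35, 5.57 in HS47 and 3.79 in HS52, but 1.88 in HS27 and 2.60 in HS48, close to the 2.53, 0.76 and 2.17 of HS4, HS14 and HS37 (log2FC -2.57, SE 0.94, edgeR adjusted p = 0.859).

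ROS1, a lung gene that encodes a receptor tyrosine kinase of epithelia, was counted 598, 285 and 203 times in HS35, HS47 and HS52 and 0 times in HS27, HS48 and all thoracic tumors. With the thoracic libraries set at 3 counts each, its mean was at least 53.4-fold lower there than in lung. SLC44A4, a lung gene for a choline transporter-like protein, had 2376 counts in HS52 but 11 to 72 in the other lung tumors and 9, 3 and 20 in the thoracic tumors (log2FC -5.20, SE 2.02, and -1.54 without HS52). ROS1 lies on chromosome 1 as well, so its values entered both descriptions.

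Of the 11 epithelial genes tested, 3 were lower and 0 higher at an unadjusted p under 0.05, beside 2.69% and 3.01% of all genes. The 3 were AGER, ROS1 and SLC44A4, already described above. The median log2FC of the 11 was -0.55 and 4 were positive. Of these 11, 7 are lung genes. The median turned to 0.80 without HS52. SPDEF, a factor of secretory cells, had 0 counts in HS4 and HS37, 91 in HS14 and 250 in HS52. Motile cilia genes had a median of -0.83 over 9 genes with 3 positive, which was -0.51 without HS35 and -1.25 without HS37. RSPH4A, a part of the ciliary radial spoke, had 22, 5 and 11 counts in HS4, HS14 and HS37 and from 3 in HS27 to 383 in HS52 (log2FC -2.93, SE 1.28, -1.86 without HS52, edgeR adjusted p = 0.859). The part of surrounding lung in the other values was not tested.

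**Figure D5:**
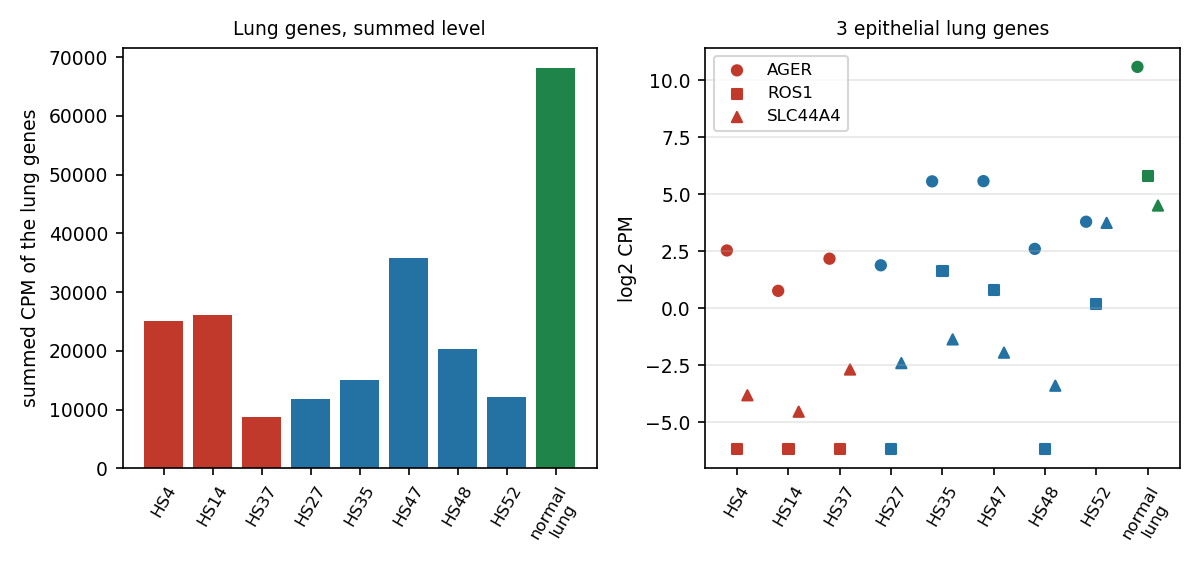
Left, summed level of the 638 lung genes (CPM, y axis) in each tumor and in normal lung. Right, level (log2 CPM, y axis) of AGER, ROS1 and SLC44A4 in the same libraries, with thoracic tumors in red, lung tumors in blue and normal lung in green. The green points on the right are on the scale of all 24 libraries, with a prior count of 0.5 in place of 2. AGER and ROS1 are high in HS35, HS47 and HS52, and ROS1 sits at the value given to 0 counts in the remaining 5 tumors.

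Against the 7 reference tumors, each site was compared in 1 fit of all 15 HS tumors. Of 19432 genes tested, edgeR called 0 for thoracic tumors, where 1587 (8.17%) had an unadjusted p under 0.05 and DESeq2 called 146 (0.751%). It called 0 for lung tumors, where 1127 (5.8%) had an unadjusted p under 0.05 and DESeq2 called 83 (0.427%). The comparisons share libraries with the one between the sites, so their values are only set side by side. For TMX3 the log2FC was -2.14 in thoracic and 0.21 in lung tumors against the reference, for LRP11 -1.44 and 0.10, for POLI -1.53 and 0.15, for ZNF236 -1.81 and -0.16, and for MAP7 -3.35 and -0.12. All 7 reference tumors lay above all thoracic tumors for TMX3 and ZNF236, 6 of 7 for LRP11 and POLI and 5 of 7 for MAP7. FBP1 had -1.87 and 1.91, and 3 of 7 reference tumors lay above all thoracic tumors. TSPAN31 had 0.98 and -0.14, while SAMD12 had 1.63 and -2.68.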

How the data were processed

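Tumor tissue of Bernese Mountain Dogs was sequenced with a stranded total RNA kit after ribosomal and globin depletion. According to the methods and processing notes, the authors trimmed reads (cutadapt 3.7), checked them (FastQC 0.11.9), aligned them to CanFam3.1 (STAR 2.7.10a) and counted them per gene (HTSeq 2.0.0), and the deposited values are these raw counts. The strand setting of the counting is not given in the sources used here. Groups came from the disease and tissue labels. The thoracic and lung tumors were compared with edgeR 4.0.16 (TMM, filterByExpr, quasi-likelihood F test, Benjamini-Hochberg adjustment) in R 4.3.3, and genes with an adjusted p under 0.05 and an absolute log2FC above 1.5 were called. Levels are log2 CPM with a prior count of 2. DESeq2 1.42.0 was an alternative, among others given in the closing section, and the fit was tested on simulated data.

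Totals of the 8 libraries ran from 124147248 to 171815073 counts, and a floor of 3 counts stood for 0. Named genes were the 10 of smallest p in each direction among genes with a name, and the 2 of smallest p in each direction among those without, besides list genes chosen after their values were seen, as were the genes left out of list sums and the 2 genes highest in normal lung. Names came from symbols in the study's supplementary tables for 1126 identifiers, and gene order from RefSeq (assembly UU_Cfam_GSD_1.0, not CanFam3.1, so no coordinates are given). The comparison, its members and the lists were chosen with earlier results of these data known. The cell line counts were not used here.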

Additional observations from a re-analysis of the deposited data

Results flagged for a closer look

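In each of 54 named genes, the highest and the lowest of the 5 lung tumors were compared with the others by Dixon's ratio of the gap to the whole range (critical value 0.71), and 5 genes exceeded it. Chance exceeds this limit in about 1 in 20 groups, and the thoracic group of 3 was too small to examine. UNC93A was lowest in HS48 (ratio 0.869), with 0 counts there against 25 to 66 in the other lung tumors. ARFGEF3 was lowest in HS27 (ratio 0.844), at 0.85 log2 CPM against 2.62 to 2.95. TCF19 was lowest in HS47 (ratio 0.744), at 2.41 log2 CPM against 3.74 to 4.20. SLC44A4, a lung gene, was highest in HS52 (ratio 0.715), at 3.74 log2 CPM against -3.40 to -1.37. ENSCAFG00000012148 was highest in HS48 (ratio 1), which rests on 1 count against 0 in the other 4.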

How the results depend on the processing

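Between the sites, edgeR called 1 gene, and it called 1 with RLE factors, no filter on low counts, a filter of 1 CPM in 3 libraries, a robust fit or the HHS lung tumor added. DESeq2 called 106. The count was 0 with all 15 HS tumors in the fit, with Benjamini-Yekutieli adjustment and with glmTreat. With single tumors left out it ran from 0 (without HS4, HS14, HS37, HS35, HS47 or HS52) to 2 (without HS27). Against the reference tumors DESeq2 called 146 for thoracic and 83 for lung tumors, where edgeR called 0. The lung genes numbered 369 at 8 times in place of 4 and 1036 at 1 CPM in place of 5. Over 54 named genes, 641 values in other settings held 5 that turned in direction, each without 1 thoracic tumor. With single tumors left out, the log2FC ran from -0.54 (without HS37) to 6.52 for MEST, from -0.43 (without HS14) to 1.5 for DLA-DRA, from -0.24 (without HS4) to 0.56 for MDM2, from -1.14 (without HS14) to 1.97 for LYZ and from -0.08 (without HS14) to 1.42 for NAB2. The cause was not tested. The median log2FC of all genes moved by -0.07 to 0.06. Alternatives for list and chromosome medians were chosen after seeing the data. No paired analysis was possible because the labels give these groups no shared replicate numbers. With 3 against 5 tumors, a gene whose level varies within a site may differ without passing the test.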
